A study of Homo sapiens with 3 samples.

Results

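A set of 10 known targets of the transcription factor p53, with roles in redox balance, metabolism and the repair of DNA lesions, was followed in BEAS-2B, a line of bronchial epithelial cells of human origin that was made immortal. The named genes were TP53I3, SESN1, SESN2, TIGAR, FDXR, XPC, DDB2, POLH, GDF15 and RPS27L. Every probe annotated to a single one of these symbols, with a value on at least 1 array, was taken. This gave 10 probes of 7 genes, out of 31615 probes and 14904 named genes in the whole table. SESN2, FDXR and XPC had no such probe and were not analysed here. SESN1 had values on arrays 2 and 3 only, so 6 genes had values on all 3 arrays. The genes were selected on the log ratios of this same comparison, which were already known, and their values below are a description, with no test in their support.

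Total RNA of cells given MTX was set against total RNA of cells given DMSO, the vehicle, on 3 dual-colour whole-genome arrays. Cells were incubated for 24 h and then received MTX at 0.144 µM, stated as the concentration that inhibits by 20%, for 48 h. MTX is written as in the labels. RNA from MTX cells carried Cy5 and RNA from DMSO cells carried Cy3 on every array, so there was 1 group of 3 ratios, no dye exchange, and a dye effect of a gene is part of its value. Positive log ratios are read as higher with MTX, which is likely from the dyes rather than settled. No source names the base of the logarithm, and each fold is printed for base 10 and for base 2. The labels do not say whether the arrays came from separate cultures, and p-values cover no more than the scatter of 3 arrays, which could be technical. With ratios alone, the identity of the cells could not be checked from levels of their markers. Of 5 airway epithelial markers tested, EPCAM rose by 0.278, KRT18 fell by 0.159 and 3 did not pass, KRT7 at 0.246 among them, while CD3E of blood and COL1A1 of fibroblasts had -0.0556 and -0.0231 and did not pass. Fewer cells and less RNA per cell cannot be told apart in such samples.

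p53 is stabilised when DNA is damaged, binds paired half-sites near its target genes and raises their transcription. Beside the targets that stop the cell cycle or kill the cell, it has targets that help a cell to live through damage. TP53I3 is a quinone oxidoreductase, the sestrins restrain the growth kinase mTORC1 and help to regenerate peroxiredoxins, TIGAR turns glucose towards the pentose phosphate pathway, and FDXR passes electrons to ferredoxin in mitochondria. DDB2 and XPC recognise lesions for nucleotide excision repair, and POLH copies past ultraviolet lesions. GDF15 is a secreted stress cytokine, and RPS27L is a ribosomal protein that resembles RPS27.

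The promoters of the 7 measured genes were searched for a pair of p53 half-sites, because all of them are reported targets. The RefSeq windows (GRCh38.p14) hold 250 bases before and 50 bases from each start, and all 7 genes matched. The half-site consensus has 10 bases and reads the same on both strands, and pairs were scored by their mismatches with a spacer of at most 2 bases. The second start of DDB2 held a pair with 0 mismatches and a spacer of 1 base, from base 6 to base 26 after the start. Only 7 of 35116 windows (0.0199%) held such a pair. The best pairs of SESN1 (at the third of its starts), GDF15 and RPS27L had 3 mismatches, as had 14.4% of all windows or better. The best pair of TP53I3 had 5 (91.9% of windows do as well), and those of TIGAR and POLH had 6 (99.8%). These are matches of letters in these windows, and elements elsewhere were not searched. The stretches with 3 or fewer mismatches are shown so that the exact and the partial pairs can be compared, with the best pair in capitals, from chr11:47214975-47215004 (plus strand), chr6:109009013-109009042 (minus), chr19:18386178-18386207 (plus) and chr15:63157522-63157551 (minus).
DDB2: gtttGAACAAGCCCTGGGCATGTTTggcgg
SESN1: cgtctGGACAAGTCTCCACAAGTCAgaaat
GDF15: acctgcacAGCCATGCCCGGGCAAGAACtc
RPS27L: aggagGGCCTAGAGCAGACAAGCCCgcccc
For TP53I3, the gene with the highest mean log ratio of the set, the 250 bases before the start (chr2:24084835-24085084, minus strand) are shown whole, with its best pair in capitals.
TP53I3: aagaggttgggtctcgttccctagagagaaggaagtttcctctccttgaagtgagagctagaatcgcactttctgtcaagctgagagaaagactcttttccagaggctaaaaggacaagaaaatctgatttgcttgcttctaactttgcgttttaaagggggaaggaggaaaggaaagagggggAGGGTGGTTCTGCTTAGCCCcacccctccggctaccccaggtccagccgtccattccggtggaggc

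All 6 genes with values on every array had positive log ratios on all 3 arrays, as had 34.3% of the 9394 genes tested. The median of their means was 0.227, against 0.00742 for all genes. TP53I3, POLH and GDF15 were among the genes called higher in the limma fit over all genes (adjusted p under 0.05), a call that 16.6% of all genes received, and 0 of the 6 were among the 12.4% called lower. TIGAR, DDB2 and RPS27L missed the threshold narrowly, with adjusted p-values between 0.0514 and 0.0533. Since the choice of the genes used this contrast, nothing is read from these counts. An exact sign-flip permutation test of 1 gene on 3 arrays cannot give a two-sided p under 0.25. Without array 1 or without array 2 the fit called 0 genes in all, with 2938 and 2387 genes at an unadjusted p under 0.05, among them 4 and 5 of the 6 genes. Without array 3 it called 2372 genes higher and 1915 lower.

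**Figure D1:**
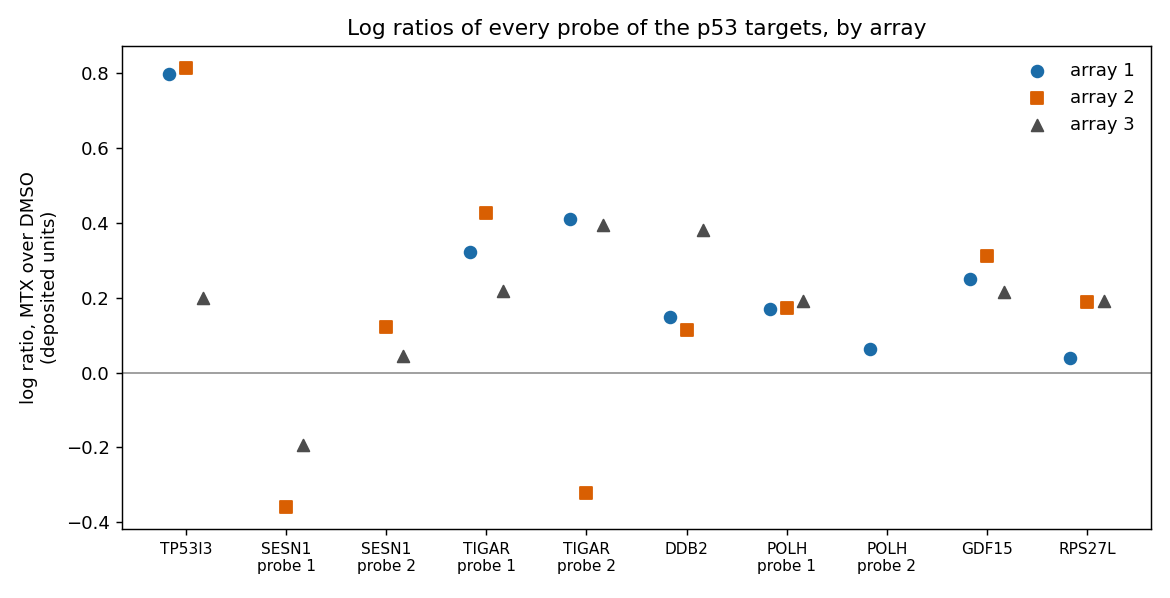
Log ratio (MTX over DMSO, deposited units) of each probe of the 7 measured genes, with 1 point per array. POLH probe 1 lay within 0.170 to 0.192, while TP53I3 dropped from about 0.8 to 0.198 on array 3 and TIGAR probe 2 lay at -0.322 on array 2.

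Of the redox genes, TP53I3 had log ratios of 0.797, 0.813 and 0.198 on arrays 1, 2 and 3. Arrays 1 and 2 were close together and array 3 stood far below them. The mean was 0.603 ± 0.350 (SD, n = 3), or 4.01-fold for base 10 and 1.52-fold for base 2 (limma adjusted p = 0.0328). The SD was larger than that of 99.8% of all genes. The gene ranked 5th, 1st and 500th of 9394 genes. Leaving out array 3 gave a mean of 0.805 (adjusted p = 0.00147), and without array 1 or 2 it was 0.505 and 0.498 with adjusted p-values of 0.162 and 0.115. TP53I3 also missed the threshold with a running median over probe numbers removed (0.541, adjusted p = 0.0522). The same held in the fit of probes on at least 2 arrays (0.603, adjusted p = 0.0558).

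Probe numbers were taken to follow the array surface in rows of 215 spots, a layout that no source gives. The lag of 215 was chosen for the highest autocorrelation of these same log ratios. Spots 215 numbers apart correlated at 0.245, 0.293 and 0.192 on arrays 1, 2 and 3, against 0.03, 0.006 and 0.032 at 50 numbers apart. Within 2 columns and 5 rows of TP53I3, the other spots had a median of 0.300 on array 1 (23 spots), 0.352 on array 2 (27 spots) and 0.0405 on array 3 (26 spots). The spots 3 to 5 columns away had medians of 0.121, 0.106 and 0.0936. The spots of this streak were high on arrays 1 and 2, where TP53I3 was high. The part of the streak in the TP53I3 values was not tested. Positive neighbours numbered 18 of 23 on array 1, 25 of 27 on array 2 and 18 of 26 on array 3. Among them, picked after their values were seen, were HCCS, a haem lyase of mitochondria (0.375, 0.391 and 0.0250), and AGGF1, an angiogenic factor (0.508, 0.437 and 0.217). Other neighbours, picked likewise, lay near 0. NGDN, in the next row of the same column as TP53I3, had -0.056, 0.028 and -0.068. TCF23, in the same column, had -0.044, -0.0094 and -0.038. As an alternative chosen after seeing the data, the median of the spots within 2 columns and 5 rows was subtracted from every spot. TP53I3 then had 0.497, 0.460 and 0.158, averaging 0.372 ± 0.186 (adjusted p = 0.0119). With the wider window of 11 by 11 spots the mean was 0.459 (adjusted p = 0.0319). Its ratio was above the median of its neighbours on every array, and 2, 1 and 5 single neighbours were at least as high on arrays 1, 2 and 3.

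**Figure D2:**
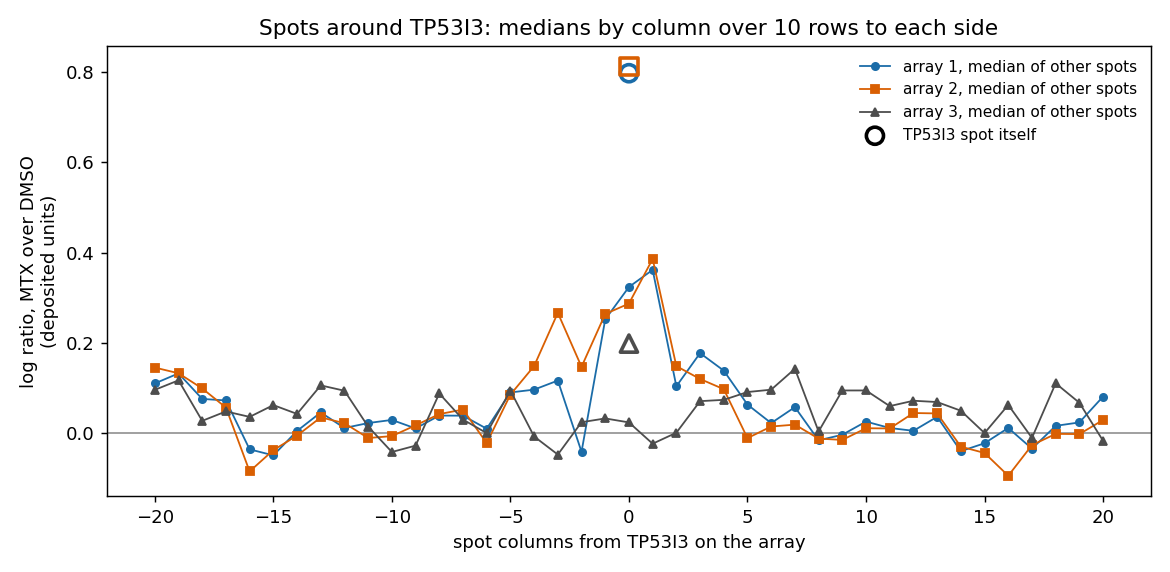
Median log ratio (deposited units) of the spots in each column around TP53I3, over 10 rows to each side, by array, with the TP53I3 spot as open symbols. On arrays 1 and 2 the medians reached 0.362 and 0.386 at 1 column from TP53I3, while array 3 had -0.0237 there.

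The 5 genes whose 3 log ratios lay nearest to those of TP53I3 by Euclidean distance over the 3 arrays were KDM6B (0.213), CCR1 (0.274), IL11 (0.282), ZNF670 (0.291) and KBTBD8 (0.348). KDM6B, a histone demethylase, had 0.686, 0.669 and 0.0860, the same drop on array 3. ZNF670, a zinc-finger gene (0.612, 0.598 and 0.265), is a neighbour of TP53I3 inside the same streak.

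SESN1 had 2 probes, both annotated to the same transcript record and both without a value on array 1. The first probe had -0.360 on array 2 and -0.193 on array 3, and the second had 0.120 and 0.0434. They disagreed in sign on both arrays. The gap of 0.481 on array 2 was reached by 1.88% of the 2926 other genes with 2 probes there, where the median gap was 0.105, and the gap of 0.237 on array 3 was reached by 13.7% of 3001 genes. Spots within 2 columns and 5 rows had medians of -0.131 and -0.0958 around the first probe and 0.0308 and -0.0108 around the second. The part of this in the disagreement was not tested. No direction can be given for SESN1. SESN3, another sestrin, had -0.00380 and -0.0143 on arrays 1 and 2.

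Genes around these redox members were counted beside the 16.6% of all genes called higher and the 12.4% called lower. Of 19 quinone reductases and antioxidant enzymes measured, 3 rose and 4 fell, and their median was -0.0247. The phospholipid hydroperoxidase GPX4 fell by 0.251 (-0.246, -0.316 and -0.190 on the 3 arrays, adjusted p = 0.0118), and the peroxide reductase PRDX1 fell by 0.129 (adjusted p = 0.0358). Haem oxygenase HMOX1 rose by 0.170 ± 0.0919 (adjusted p = 0.0371). CRYZ, a quinone oxidoreductase related to TP53I3, averaged -0.0427 ± 0.0511 and did not pass (adjusted p = 0.281). NQO1, the main cytosolic quinone reductase, had 0.00605 and 0.0536 on arrays 2 and 3 only. Of 18 sestrin partners and mTORC1 inputs, 1 rose and 2 fell (median -0.0337). PRKAB2, a subunit of the energy-sensing kinase AMPK, rose by 0.101 ± 0.0238 (adjusted p = 0.0302), but had 0.0251 with a running median over probe numbers removed (adjusted p = 0.476) and 0.0664 by its first probe (adjusted p = 0.106). In the same list the mTORC1 activator RHEB and the nuclear pore and GATOR2 protein SEH1L fell by 0.0848 and 0.0794 (both named after their values were seen). PRKAB1, another AMPK subunit, had a larger mean of 0.215, with 0.409, 0.311 and -0.0759 on the 3 arrays, and did not pass (adjusted p = 0.158). TSC1, an inhibitor of mTORC1, had 0.0859, -0.465 and 0.00155 (adjusted p = 0.431).

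Of the metabolic genes, TIGAR had 2 probes with values on all arrays. The probe from an expressed sequence tag had 0.322, 0.426 and 0.218, and the probe from the RefSeq transcript had 0.409, -0.322 and 0.394. They were alike on array 1 and lay on opposite sides of 0 on array 2. The gap of 0.749 on array 2 was reached by 5 of 2926 other genes with 2 probes (0.171%). The gene mean was 0.365, 0.0520 and 0.306 on the 3 arrays, or 0.241 ± 0.166 (n = 3, 1.74-fold if base 10, 1.18-fold if base 2, adjusted p = 0.0521). The first probe alone gave 0.322 ± 0.104 (adjusted p = 0.0148). The RefSeq probe alone averaged 0.160 ± 0.418 (adjusted p = 0.468 in a limma fit of single probes, where the first had 0.0117).

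Within 2 columns and 5 rows of the second TIGAR probe, the other spots had medians of -0.376, -0.432 and -0.0922 on arrays 1, 2 and 3, while spots 3 to 5 columns away had -0.0571, -0.0533 and -0.00488. On array 2 all 14 neighbours were negative. On array 1 the spot had 0.409 with a median of -0.376 around it. The part of the surroundings in these values was not tested. With the neighbours' median subtracted, the gene had 0.541, 0.281 and 0.360, with a mean of 0.394 ± 0.133 (adjusted p = 0.00545). The wider window gave 0.423, 0.0857 and 0.329, with a mean of 0.279 ± 0.174 (adjusted p = 0.0305). Its median around the second probe on array 2 was -0.0843, so the -0.322 of that probe stayed negative there. Both windows were chosen after seeing the data. With array weights, which gave array 2 a weight of 3.98 against 0.766 and 0.328, the mean was 0.116 (adjusted p = 0.121).

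TIGAR removes fructose 2,6-bisphosphate, the activator of glycolysis that PFKFB enzymes make. PFKFB3 had 2 complete probes of opposite sign, at 0.324, 0.370 and 0.131 and at -0.273, -0.243 and -0.221, so that its mean of 0.0146 (adjusted p = 0.714) stands for neither probe. Of 11 measured genes of glycolysis and the pentose phosphate pathway, 1 rose and 3 fell (median -0.0297), beside 16.6% and 12.4% of all genes. Transketolase (TKT), of the pentose phosphate pathway, fell by 0.248 (-0.273, -0.177 and -0.294, adjusted p = 0.0118), and transaldolase (TALDO1), of the same pathway, fell by 0.0896 (adjusted p = 0.0495), but had -0.0339 by its first probe (adjusted p = 0.277). Hexokinase 2 (HK2) rose by 0.112 ± 0.0199 (adjusted p = 0.0231), but had -0.0047 with the neighbours' median subtracted (adjusted p = 0.922). Around FDXR, which was not analysed here, FDX1, the ferredoxin it reduces, rose by 0.0835 ± 0.0121 (0.0825, 0.0961 and 0.0719, adjusted p = 0.0393). Of the 12 measured ferredoxin and iron-sulfur genes 1 rose and 1 fell (median 0.0129), again beside 16.6% and 12.4%. The gene that fell was LYRM4, a partner of the cysteine desulfurase of iron-sulfur assembly, by 0.105 ± 0.0108 (adjusted p = 0.0238), as the mean of 4 probes. Its first probe alone gave -0.00820 (adjusted p = 0.833). CYP24A1, a mitochondrial hydroxylase that takes its electrons from ferredoxin, averaged 0.0971, and IBA57, of mitochondrial iron-sulfur assembly, averaged -0.0970, and neither passed (adjusted p = 0.0961 and 0.118).

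Of the lesion repair genes, POLH, DNA polymerase eta, was the steadiest of the set. Its RefSeq probe had 0.170, 0.172 and 0.192, with a mean of 0.178 ± 0.0120 (n = 3, 1.51-fold if base 10, 1.13-fold if base 2, adjusted p = 0.0107). The 3 arrays lay within 0.0221 of each other, and 7.40% of genes had an SD as small. A second probe, from an expressed sequence tag, had a value on array 1 alone, 0.0632, lower than the 0.170 of the first. Other spots around the first probe had medians of 0.0153, 0.0300 and -0.0294, near 0 on every array.

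DDB2, the lesion-binding subunit of the UV-DDB complex, had 0.147, 0.114 and 0.379. All were positive and array 3 stood above the others, which is the reverse of TP53I3. On array 3 DDB2 ranked 43rd of all genes, and on arrays 1 and 2 it ranked 1099th and 1618th. The mean was 0.214 ± 0.145 (n = 3, 1.64-fold if base 10, 1.16-fold if base 2, adjusted p = 0.0514). Without array 3 the mean was 0.131, with an adjusted p of 0.0112. Its neighbours had medians of -0.128, -0.0827 and 0.0218, which were also highest on array 3. With these subtracted the values were 0.275, 0.197 and 0.358 (mean 0.277 ± 0.0805, adjusted p = 0.00533). The part of the surroundings in the DDB2 values was not tested.

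Of 20 measured nucleotide excision repair genes, the pathway of DDB2, 0 rose and 1 fell in the limma fit (median -0.0221, range -0.118 to 0.0746), beside 16.6% and 12.4% of all genes. RPA2, of the single-strand binding complex, was the gene that fell, by 0.118 ± 0.0265 (adjusted p = 0.0230). DDB1, the obligate partner of DDB2, had -0.0288, -0.0248 and -0.0222, a mean of -0.0253 ± 0.00332 (adjusted p = 0.362). CUL4B, a cullin scaffold of their ligase, averaged -0.0834 (adjusted p = 0.0533), and the incision nuclease subunit ERCC1 averaged -0.0907 (adjusted p = 0.187). In translesion synthesis, the pathway of POLH, 6 of 15 genes rose and 0 fell (median 0.0836), beside the 16.6% of all genes called higher. SPRTN, a protease of DNA-protein crosslinks at forks, rose by 0.299 ± 0.0692 (0.239, 0.283 and 0.374, adjusted p = 0.0104). POLQ, the polymerase of theta-mediated end joining, rose by 0.200 ± 0.0488 (adjusted p = 0.0132). REV3L, the catalytic subunit of polymerase zeta, rose by 0.126 ± 0.0688 (adjusted p = 0.0458). RAD18, the ligase that ubiquitinates the sliding clamp for POLH, rose by 0.0954 ± 0.0226 and the Y-family polymerase POLK by 0.0900 ± 0.0126 (adjusted p = 0.0333 for each). The POLK values average 2 complete probes that ran in opposite directions over the arrays. They had -0.0102, 0.0913 and 0.110, and 0.1925, 0.113 and 0.0437. By its first probe POLK had 0.0637 (adjusted p = 0.193). The count of 6 became 2 in the fit of probes on at least 2 arrays and 3 with a running median over probe numbers removed. With that median removed, REV3L had 0.0139 (adjusted p = 0.641), RAD18 had 0.0582 (adjusted p = 0.280) and POLK had 0.0440 (adjusted p = 0.180).

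GDF15 had 0.248, 0.310 and 0.215, close to each other on all arrays. The mean was 0.258 ± 0.0479 (n = 3, 1.81-fold if base 10, 1.20-fold if base 2, adjusted p = 0.0101). In the inferred layout it lies in the same row of spots as TP53I3 but outside the streak. Its neighbours had medians of -0.0140, 0.0542 and 0.0769, and of these neighbours 0 reached GDF15 on any array. With them subtracted the mean was 0.219 (adjusted p = 0.00711). Among known inducers of GDF15 other than p53, the immediate-early factor EGR1 rose by 0.340 ± 0.0536 (0.295, 0.399 and 0.325, adjusted p = 0.00926) and the stress factor ATF3 by 0.185 ± 0.0414 (adjusted p = 0.0133). ATF4 and DDIT3, of the integrated stress response (DDIT3 named after its value was seen), averaged -0.0572 and -0.0280 and did not pass (adjusted p = 0.169 and 0.627). Of the related TGF-beta family list, 3 of 14 genes had values on all arrays and 0 passed in either direction. They were INHBB, INHBA and TGFB2, with means of 0.0445, 0.0230 and 0.00347.

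RPS27L had 0.0381, 0.189 and 0.190, with array 1 near 0 and arrays 2 and 3 alike. The mean was 0.139 ± 0.0875 (n = 3, 1.38-fold if base 10, 1.10-fold if base 2, adjusted p = 0.0533). Its neighbours within 2 columns and 5 rows had medians of -0.0266, 0.0158 and 0.0614, also lowest on array 1. Of these neighbours 7, 1 and 6 were at least as high as RPS27L on arrays 1, 2 and 3. With the medians subtracted RPS27L had 0.0646, 0.173 and 0.129. The part of the surroundings in the RPS27L values was not tested. RPS27, the ribosomal protein gene that RPS27L resembles, went the other way. Its 2 probes had -0.284, -0.171 and -0.173, and -0.312, -0.252 and -0.137, and its mean was -0.222 ± 0.0721 (adjusted p = 0.0158). The 2 genes did not overlap on any array. RPS27L exceeded RPS27 by 0.336, 0.401 and 0.345 on arrays 1, 2 and 3, a difference of 0.361 ± 0.0347 (2.29-fold if base 10, 1.28-fold if base 2). This difference varied less between arrays than either gene. With a running median over probe numbers removed it was 0.151, 0.178 and 0.192 (mean 0.174 ± 0.0211), and RPS27L itself had 0.0482 (adjusted p = 0.238). With local medians of 11 by 11 spots removed it was 0.233, 0.284 and 0.251 (mean 0.256 ± 0.0261). Whether the probes tell the 2 similar transcripts apart was not tested, and shared signal would draw their ratios together. Of 13 measured ribosomal proteins that have a paralogue 0 rose and 7 fell (median -0.0900), beside the 12.4% of all genes called lower. RPL26 fell by 0.314 ± 0.00297 (adjusted p = 0.00866), RPL3 by 0.238 ± 0.0277 (adjusted p = 0.00971) and RPL10L by 0.336 ± 0.0314 (adjusted p = 0.00866). RPL10L is nearly identical to RPL10 in sequence, so its ratio is uncertain. The 7 that fell hold RPL10 (-0.232) beside RPL10L, and RPL26L1 (-0.196) beside RPL26. Whether the probes tell such pairs apart was not tested, so the 7 may not be separate signals.

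**Figure D3:**
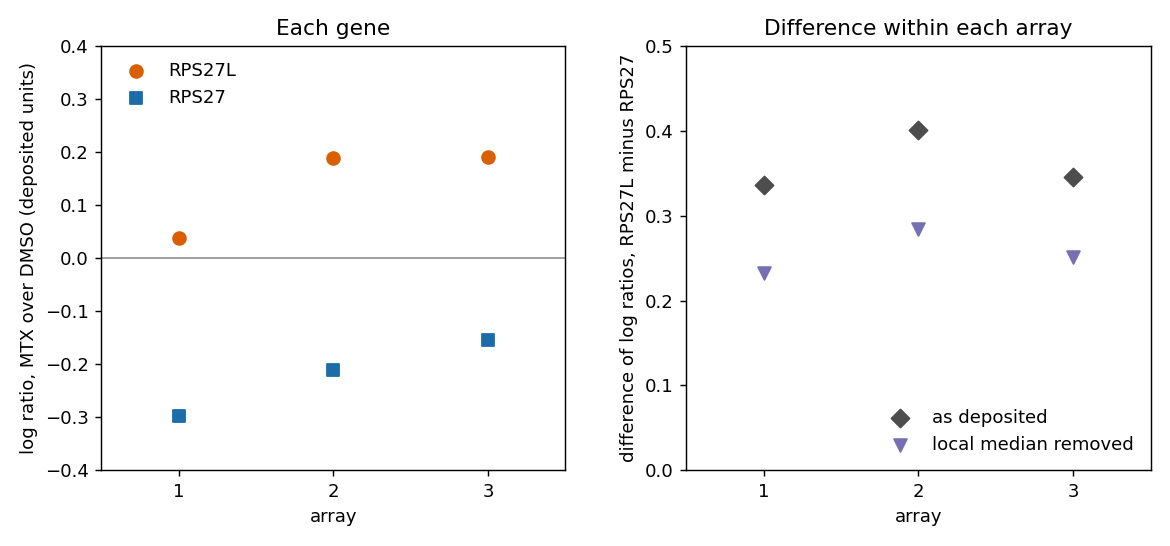
Log ratios of RPS27L and RPS27 on each array (left) and their difference within the array (right, a difference of log ratios in deposited units), as deposited and with local medians removed. As deposited, RPS27L lay above 0 and RPS27 below 0 on all 3 arrays, and the difference stayed within 0.336 to 0.401. With local medians removed the difference was smaller, within 0.233 to 0.284.

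The order of the 6 means was TP53I3, GDF15, TIGAR, DDB2, POLH and RPS27L. Every pair of neighbours in this order overlapped in its range over the arrays. On array 3 DDB2 (0.379) was highest, and TP53I3 (0.198) lay below DDB2, TIGAR and GDF15. RPS27L was low on array 1, TIGAR was low on array 2, and on array 3 TP53I3 was low and DDB2 high.

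Targets of p53 outside this set were measured on the same arrays. Of 17 such genes for arrest, feedback and death, 12 rose and 1 fell (median 0.190, against 0.227 for the 6), beside 16.6% and 12.4% of all genes. This list was also chosen with earlier results of these data known, and nothing is read from its counts. Without array 1 or array 2, 0 of the 17 were called, as of all genes. The gene that fell was BAX, a pore-forming protein of cell death, with -0.0867, -0.144 and -0.141 (mean -0.124, adjusted p = 0.0230). The death genes PMAIP1 and BBC3, named like BAX after their values were seen, averaged -0.0152 and 0.0118 and did not pass. PPM1D, the phosphatase that turns p53 signalling off, had 0.534, 0.554 and 0.617, and FAS, a death receptor, had 0.575, 0.541 and 0.572. MDM2, the ubiquitin ligase of p53, averaged 0.409 ± 0.126. CDKN1A, the p53-induced inhibitor of cell-cycle kinases, had 0.467, 0.407 and 0.306 with its complete probe, while a second probe had -0.0345 on array 2 alone. Of 7 genes of the p53 family and its regulators 1 rose and 1 fell (median -0.00414). They were EP300, an acetyltransferase that acts with p53, at 0.209 ± 0.0606 (adjusted p = 0.0146), and TP53BP1, a reader of double-strand breaks, at -0.116 ± 0.0389 (adjusted p = 0.0296). CHEK2, a kinase of p53, averaged 0.103 ± 0.0891 (adjusted p = 0.106). The medians of both lists of p53 targets were positive in the plot of pathway lists, while the lists of their partner genes, other than translesion synthesis and the inducers of GDF15, had medians between -0.0900 and 0.0230.

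**Figure D4:**
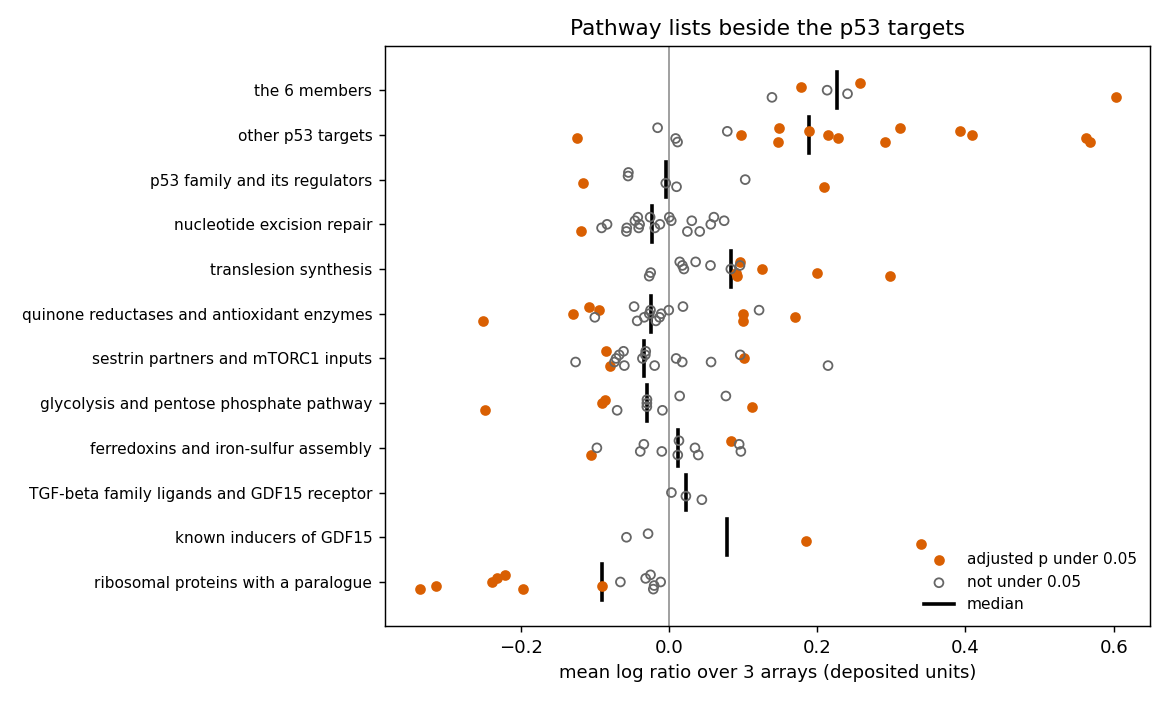
Mean log ratio over 3 arrays (deposited units) of every measured gene in each list, filled where the adjusted p was under 0.05, with the list's median as a bar. The 6 members and the 17 other p53 targets had medians of 0.227 and 0.190, and nucleotide excision repair had -0.0221.

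Under the other ways of processing, the mean of each of the 6 genes stayed positive. The means ranged from 0.372 to 0.805 for TP53I3, from 0.116 to 0.394 for TIGAR, from 0.131 to 0.277 for DDB2, from 0.171 to 0.184 for POLH, from 0.214 to 0.294 for GDF15 and from 0.0482 to 0.190 for RPS27L. POLH and GDF15 were called in 11 of 13 alternatives, TP53I3 in 9, DDB2 in 5, TIGAR in 4 and RPS27L in 3. After removal of the wide or the narrow local median, both chosen after seeing the data, all 6 were called, beside 18.1% and 17.8% of all genes called higher. Nothing is read from these counts either.

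**Figure D5:**
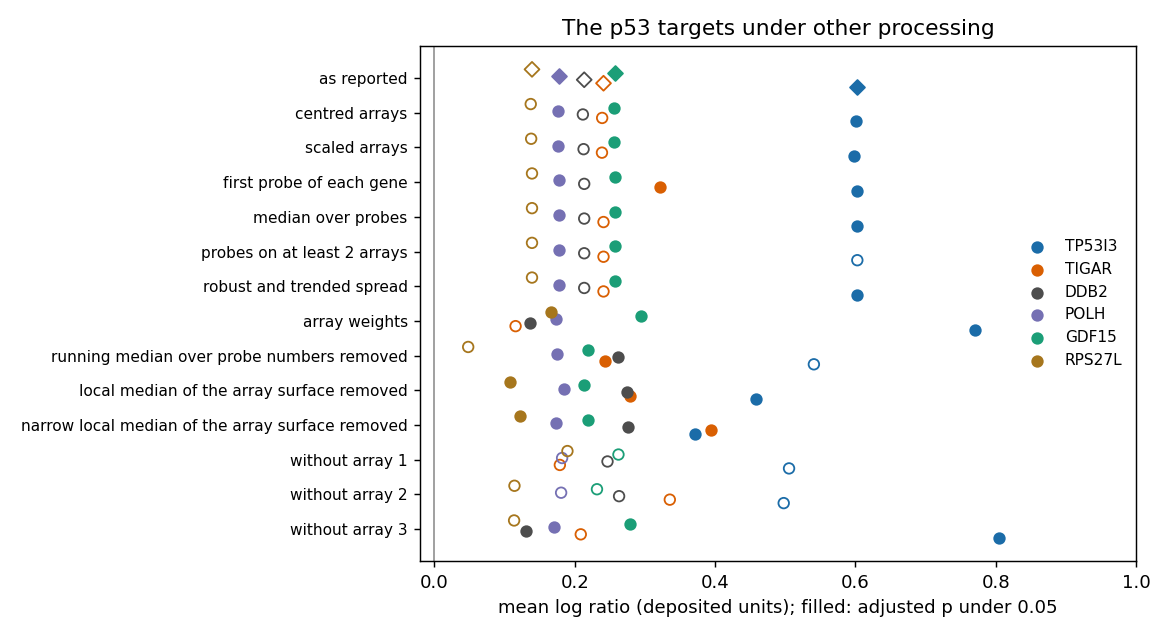
Mean log ratio (deposited units) of the 6 genes as reported (diamonds) and under 13 alternatives (circles), filled where the adjusted p was under 0.05. POLH and GDF15 moved least, and TP53I3 ran from 0.372 to 0.805.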

How the data were processed

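The deposited table held log ratios of MTX over DMSO for 31615 probes on 3 arrays. Per the series' design text, the authors scanned with GenePix, subtracted local median background and normalized each array by LOWESS. The base of the deposited log ratios is given by no source, and they were treated as log10. No intensity was used here, so signal over background is unknown, and precision is limited by having 3 arrays. Values existed for 21224, 25272 and 25927 probes on arrays 1, 2 and 3.

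Probes were named through the platform annotation: 22472 had 1 symbol, 80 several and 9063 none. Probes with values on all arrays (13027 with a symbol) were averaged by gene, giving 9394 genes. Each gene's mean was tested against 0 with limma 3.58.1 in R 4.3.3 (lmFit and eBayes), with Benjamini-Hochberg adjustment over all genes and a threshold of 0.05. The fit was tested on simulated data. Spot rows and columns were taken from probe numbers, 215 to a row, the lag with the highest autocorrelation.

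The members and lists were chosen with earlier results of these data known. Named genes were the members, 12 fixed genes, the 3 with the largest absolute mean in each list and the 5 nearest to TP53I3, and others are named as such. The closing section gives the effect of other scalings, probe rules, spreads, array weights, position corrections and left-out arrays.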

Additional observations from a re-analysis of the deposited data

How the results depend on the processing

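For the 6 genes with values on all arrays, 78 alternative values were computed: 58 kept direction and side of the threshold, 8 kept the direction and lost the call, 12 gained it and 0 reversed. Both local medians of the array surface were chosen after seeing the data. All genes called higher and lower numbered 1557 and 1169, 958 and 675 with probes on at least 2 arrays, 3176 and 2625 with array weights, and 0 to 2372 and 0 to 1915 with 1 array left out. In the limma fit, 0 genes were called without array 1 or array 2, with 2938 and 2387 at an unadjusted p under 0.05. Of the 6 genes, 3 were called, and 2 with probes on at least 2 arrays. With array weights 5 were called, 6 with either local median removed and 0 to 4 with 1 array left out. Of the other p53 targets, 0 to 12 were called higher with 1 array left out (13 and 14 at an unadjusted p under 0.05 without array 1 and array 2). Translesion synthesis genes called higher numbered 2 with probes on at least 2 arrays, 3 with a running median removed and 0 to 8 with 1 array left out, and ribosomal genes called lower numbered 0 to 7. Leaving out any array leaves fewer samples to the fit. Without array 3 the calls nevertheless rose, to 2372 higher and 1915 lower. Why the left-out arrays differed in this was not tested. Of 675 alternatives over 52 named genes 13 reversed, and the cause was not tested. These were PFKFB3 without array 2 (-0.00985, up to 0.0445 with another array left out), ERCC1 with a running median removed (0.0347), TSC1 with the narrow median removed (0.0708) and without array 2 (0.0438, down to -0.232), HK2 with the narrow median removed (-0.00470), ATF4 by its first probe (0.0461), and INHBA with array weights (-0.0611) and without array 3 (-0.0739, up to 0.0761). TGFB2 had -0.0404 with a running median removed, -0.0209 and -0.0103 with the wide and narrow local medians removed, and -0.0187, -0.0240 and 0.0531 without array 1, 2 and 3. In the fit of probes on at least 2 arrays, TP53I3 lost its call with the same mean. So did FDX1, POLK, RAD18, REV3L, HMOX1, PRDX1, PRKAB2, TALDO1 and TP53BP1. No paired analysis was possible because the arrays form 1 group of ratios. Signal over background is unknown.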

Other observations

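Across all RefSeq promoter windows, the windows of 7 genes held a pair of p53 half-sites with 0 mismatches, and of these DDB2 alone had a probe with values here. With at most 1 mismatch there were 75 genes, of which 14 were tested, 4 higher (28.6%) and 1 lower (7.14%). With at most 2 there were 681 genes, of which 174 were tested, 31 higher (17.8%) and 23 lower (13.2%), beside 16.6% and 12.4% of all genes. These counts are a description of these windows.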
